A study of Mus musculus with 6 samples.

Results

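The 33 genes described here encode the glucose carrier, the glycolytic enzymes and their regulators, the lactate and pyruvate branches, and the enzymes of the pentose phosphate pathway. They were chosen by gene symbol from a pathway list, with earlier results of these data known. All 33 were among the 17784 genes of the expression table. Bulk RNA-seq was carried out on corneal epithelial cells of mice, with 3 samples from Prrx1-CreERT;Ptch1 f/f mice (Ptch1Prrx1) and 3 from Ptch1 f/f mice (control). Every mouse carried the floxed Ptch1 alleles, and the groups differed in Prrx1-CreERT, which the paper describes as a knock-in. Ptch1 encodes the receptor that restrains Hedgehog signaling. Prrx1-CreERT is a tamoxifen-inducible recombinase active in keratocytes and other mesenchymal cells of the eye, so the deletion was directed at the stroma and its effect was read in the overlying epithelium. The labels give an age of 10 weeks, 3 doses of tamoxifen and an interval of 2 months for both groups, and separation of the epithelium with EDTA. The comparison asks how loss of Ptch1 in stromal cells changes gene expression of the epithelium, here for central carbon metabolism.

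Glycolysis splits glucose into pyruvate, and its enzymes often exist as isozymes encoded by separate genes with different kinetic properties and tissue distribution. Pyruvate is either reduced to lactate, which leaves the cell through monocarboxylate carriers, or oxidized in mitochondria by pyruvate dehydrogenase. The pentose phosphate pathway draws glucose 6-phosphate from glycolysis to make NADPH in its oxidative steps and ribose 5-phosphate in its non-oxidative steps. The corneal epithelium is known for active glycolysis and for high transketolase, and NADPH serves its defence against oxidants.

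Expected counts per sample summed to between 20296741 and 20625813. Ptch1 itself had TPM values (transcript abundance scaled for gene length and depth) of 7.31, 9.70 and 10.2 in control replicates 1 to 3 and 5.28, 6.33 and 7.01 in Ptch1Prrx1 replicates 1 to 3, a log2 fold change of -0.51 (SE 0.13, adjusted p = 0.0401, edgeR's quasi-likelihood test). Krt12 and Krt5, which encode keratins of the corneal epithelium, had at least 37107 and 23375 TPM in each of the 6 samples. The keratocyte and stromal list summed to 1.74 to 30.1 TPM in control and 2.74 to 4.61 TPM in Ptch1Prrx1 samples. Col1a2 alone had 26.0 TPM in control replicate 3. The keratocyte marker Kera was nearly absent from both groups, at 0.06, 0 and 0.07 TPM in controls and 0 in every Ptch1Prrx1 sample. Dcn had 0.29, 0.06 and 0.36 TPM in controls and 0.83, 0.54 and 1.35 in Ptch1Prrx1 samples. Ptch1Prrx1 replicate 1 stood apart from the others of its group on the first principal component (51.7, against 18.3 and 19.1, with the controls between -33.7 and -26.5).

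Of the 33 members, 32 passed the filter on low counts. Pdk4 did not, with at most 9.19 expected counts in any sample. With edgeR's quasi-likelihood test and Benjamini-Hochberg adjustment over 12999 genes, 10 members were higher in Ptch1Prrx1 cells at an adjusted p of at most 0.05 (31.2% of those tested, against 7.61% of all tested genes) and 3 were lower (9.38%, against 6.41%). The 10 higher members were Slc2a1, Hk2, Pfkp, Gapdh, Pgam1, Eno1, Eno3, Pkm, Ldha and Slc16a3, and the 3 lower were Pfkfb2, Ldhb and Rpia. Most differences were smaller than 2-fold. With that minimum fold change added, Pfkp and Slc16a3 were called higher (2.34% of all tested genes were) and 0 members were called lower (0.892% of all tested genes), and 0 members had an unadjusted p of at most 0.05 at a 2-fold lower level. The groups did not overlap in normalized counts for 14 members that were higher and 9 that were lower, where 19.7% and 20.3% of all tested genes did so. The median log2 fold change of the 32 members was 0.15, beside -0.01 for all tested genes, and 0.003 beside -0.005 without Ptch1Prrx1 replicate 1.

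**Figure D1:**
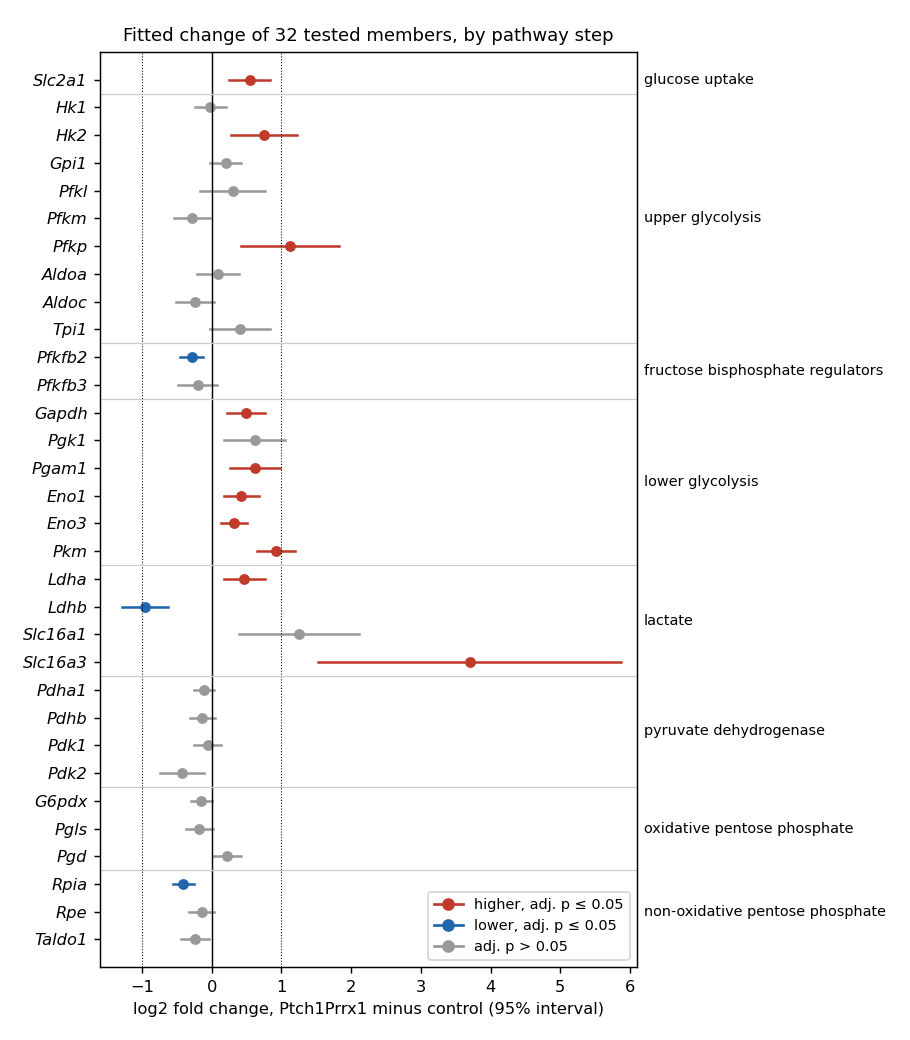
Log2 fold change (Ptch1Prrx1 minus control, x axis) of the 32 tested members with its 95% interval, ordered by pathway step from glucose uptake at the top to the non-oxidative pentose phosphate steps at the bottom. Red and blue points passed an adjusted p of 0.05, grey points did not, and dotted lines mark a 2-fold change; all 6 lower glycolysis genes lie above 0 and all 3 non-oxidative pentose phosphate genes below it.

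How far these calls hold depended on the samples. All 13 kept their direction when any 1 sample was left out, but without control replicate 2 none of the 13 passed the adjusted test, and 0.514% and 0.189% of all tested genes then passed as higher and as lower. Without control replicate 1, 1 of 32 members passed as higher and 2 as lower, beside 3.15% and 2.06% of all tested genes. The same member counts without control replicate 3 stood beside 3.40% and 2.16%. Without Ptch1Prrx1 replicate 2, 3 passed as higher and 2 as lower, beside 4.67% and 3.25%. At an unadjusted p of at most 0.05, 12 members were higher and 4 lower without control replicate 2. The share of all tested genes at that unadjusted threshold was not computed, so these 2 counts have no background to be read against. Ptch1Prrx1 replicate 1 held the highest value of its group for 9 of the 10 higher members and the lowest for 2 of the 3 lower members. Without it, 8 members were higher and 3 lower, beside 4.91% and 3.97% of all tested genes. Of these members, 9 were among the 13 of all samples.

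Slc2a1 (gene 20525) encodes GLUT1, the main glucose carrier of many epithelia. Its TPM was 81.1, 93.7 and 100.5 in the controls and 149, 120.5 and 119.9 in the Ptch1Prrx1 samples. The groups did not overlap, and the log2 fold change was 0.55 (SE 0.13, adjusted p = 0.0337, edgeR's quasi-likelihood test). It was 0.40 without Ptch1Prrx1 replicate 1.

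Upper glycolysis, from hexokinase to triosephosphate isomerase, had 2 of 9 members higher (22.2%, beside 7.61% of all tested genes). With edgeR or DESeq2, 0 were lower, beside 6.41% and 8.49% of all tested genes (1, Pfkm, at an unadjusted p of at most 0.05 with edgeR). The summed TPM of the 9 was 1212 ± 61.5 in controls and 1309 ± 166 in Ptch1Prrx1 samples (SD, n = 3). The sum was about level between groups without Ptch1Prrx1 replicate 1, with a ratio of means of 1.00. The genes that rose were minor isozymes in the control epithelium. Hk2 (gene 15277), the inducible hexokinase, had 10.6, 9.70 and 11.2 TPM in controls and 21.9, 12.8 and 16.0 in Ptch1Prrx1 samples. Every Ptch1Prrx1 sample lay above the controls, with replicate 1 well above the other two. The log2 fold change was 0.75 (SE 0.20, adjusted p = 0.0498) and 0.47 without Ptch1Prrx1 replicate 1 (adjusted p = 0.0408). Hk1 (gene 15275), the broadly expressed hexokinase, had 28.9, 36.5 and 35.6 TPM in controls and 33.6, 30.8 and 32.9 in Ptch1Prrx1 samples. These values overlapped, and the 95% interval of the log2 fold change ran from -0.24 to 0.21 (adjusted p = 0.921).

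Phosphofructokinase commits sugar to glycolysis and has a liver (Pfkl), a muscle (Pfkm) and a platelet (Pfkp) isozyme. Pfkp (gene 56421), the least abundant in the controls, had 5.21, 7.15 and 5.91 TPM there and 19.1, 8.82 and 10.2 in Ptch1Prrx1 samples. The log2 fold change of Pfkp was 1.12 (SE 0.30, adjusted p = 0.0485), the largest of the upper glycolysis members, and fell to 0.68 without Ptch1Prrx1 replicate 1 (adjusted p = 0.0329). Pfkm had 42.9, 40.6 and 38.4 TPM in controls and 26.8, 33.3 and 37.9 in Ptch1Prrx1 samples. The Pfkm groups lay side by side without overlap, at a log2 fold change of -0.28 that did not pass (adjusted p = 0.124). Pfkl had 37.8, 36.4 and 29.3 TPM in controls and 52.1, 36.2 and 34.9 in Ptch1Prrx1 samples, which overlapped (log2 fold change 0.30, adjusted p = 0.327, and 0.05 without Ptch1Prrx1 replicate 1). The summed TPM of the 3 isozymes was 81.2 ± 6.60 in controls and 86.5 ± 10.3 in Ptch1Prrx1 samples.

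Aldoa, the major aldolase, stood at 633 ± 51.3 and 654 ± 77.0 TPM in the 2 groups (log2 fold change 0.09, adjusted p = 0.664), and -0.04 without Ptch1Prrx1 replicate 1. The brain-type aldolase Aldoc had 61.9 ± 8.14 and 51.3 ± 2.55 TPM (adjusted p = 0.205). Gpi1, which makes fructose 6-phosphate, and Tpi1, which interconverts the triose phosphates, had log2 fold changes of 0.20 and 0.41 and did not pass (adjusted p = 0.185 and 0.173). Without Ptch1Prrx1 replicate 1 the values were 0.10 for Gpi1 and 0.14 for Tpi1. For the bifunctional enzymes that set fructose 2,6-bisphosphate, an activator of phosphofructokinase, Pfkfb2 (gene 18640) had 47.9, 52.3 and 48.1 TPM in controls and 33.5, 38.0 and 43.9 in Ptch1Prrx1 samples. All 3 Ptch1Prrx1 values lay under the controls (log2 fold change -0.29, SE 0.07, adjusted p = 0.0384, and 0.0711 without Ptch1Prrx1 replicate 1). Pfkfb3, the glycolysis-promoting form, had overlapping values (log2 fold change -0.20, adjusted p = 0.287). Of the forms outside the members, Pfkfb4 went the other way without passing, at 33.7 ± 3.00 and 39.4 ± 1.65 TPM (log2 fold change 0.30, adjusted p = 0.0545). Pfkfb1 was scarce, at 1.59 and 1.39 TPM (log2 fold change -0.13, adjusted p = 0.794).

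Lower glycolysis, from glyceraldehyde 3-phosphate to pyruvate, was the segment with the most members higher. Of its 6 members, 5 passed as higher, beside 7.61% of all tested genes. All 6 had groups that did not overlap, all higher, beside 19.7% of all tested genes. The summed TPM of the 6 genes was 3132, 3163 and 3029 in controls and 5150, 4273 and 4144 in Ptch1Prrx1 samples, a ratio of means of 1.46, and 1.35 without Ptch1Prrx1 replicate 1. Each Ptch1Prrx1 sample exceeded every control.

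Pkm (gene 18746) encodes the pyruvate kinase that makes pyruvate and ATP in the last step of glycolysis. Its TPM was 569, 587 and 558 in controls and 1203, 989.5 and 977 in Ptch1Prrx1 samples. The controls lay close together and far under all Ptch1Prrx1 samples, with a log2 fold change of 0.92 (SE 0.12, adjusted p = 0.00808, edgeR's quasi-likelihood test), or 1.90-fold. It passed in 15 of 16 alternatives, and missed the threshold without control replicate 2 (adjusted p = 0.0562). The table gives 1 value per gene, so the PKM1 and PKM2 splice forms could not be told apart.

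Gapdh (gene 14433), often used as a reference gene in qPCR and Western blot, was the most abundant member. It had 1753, 1764 and 1667 TPM in controls and 2657, 2234 and 2185 in Ptch1Prrx1 samples. The groups did not overlap, and the log2 fold change was 0.49 (SE 0.12, adjusted p = 0.0349), or 40.9% higher. Pgam1 (gene 18648), phosphoglycerate mutase, had 143, 146 and 146 TPM in controls and 266, 189.7 and 191 in Ptch1Prrx1 samples. Controls lay within a few TPM of each other, and the log2 fold change was 0.62 (SE 0.16, adjusted p = 0.0407), or 0.40 without Ptch1Prrx1 replicate 1 (adjusted p = 0.0118). Pgk1, phosphoglycerate kinase, had the same order of groups at 157, 154 and 162 TPM in controls and 301, 201 and 197 in Ptch1Prrx1 samples, but its log2 fold change of 0.61 missed the threshold (SE 0.19, adjusted p = 0.0636). Without Ptch1Prrx1 replicate 1 the spread of its group shrank and the value was 0.34 (adjusted p = 0.0234).

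Enolase makes phosphoenolpyruvate, and both isozymes among the members were higher. Eno1 (gene 13806), the ubiquitous form, had 502, 502 and 487 TPM in controls and 712, 647 and 583 in Ptch1Prrx1 samples. The groups were separate (log2 fold change 0.43, SE 0.11, adjusted p = 0.0433), and the value without Ptch1Prrx1 replicate 1 was 0.32 (adjusted p = 0.0616). Eno3 (gene 13808), the muscle form, had 8.44, 9.44 and 8.83 TPM in controls and 9.62, 10.9 and 10.5 in Ptch1Prrx1 samples. The Eno3 groups were separated narrowly, and the log2 fold change was 0.32 (SE 0.08, adjusted p = 0.0383, and 0.0584 without Ptch1Prrx1 replicate 1). Of the 13 members that passed, Pfkp, Pfkfb2, Gapdh and Eno3 had expected counts that were not whole numbers in any sample. RSEM splits a read over all the genes it matches, so these values may be less certain. How many reads were shared, and with which genes, was not examined.

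**Figure D2:**
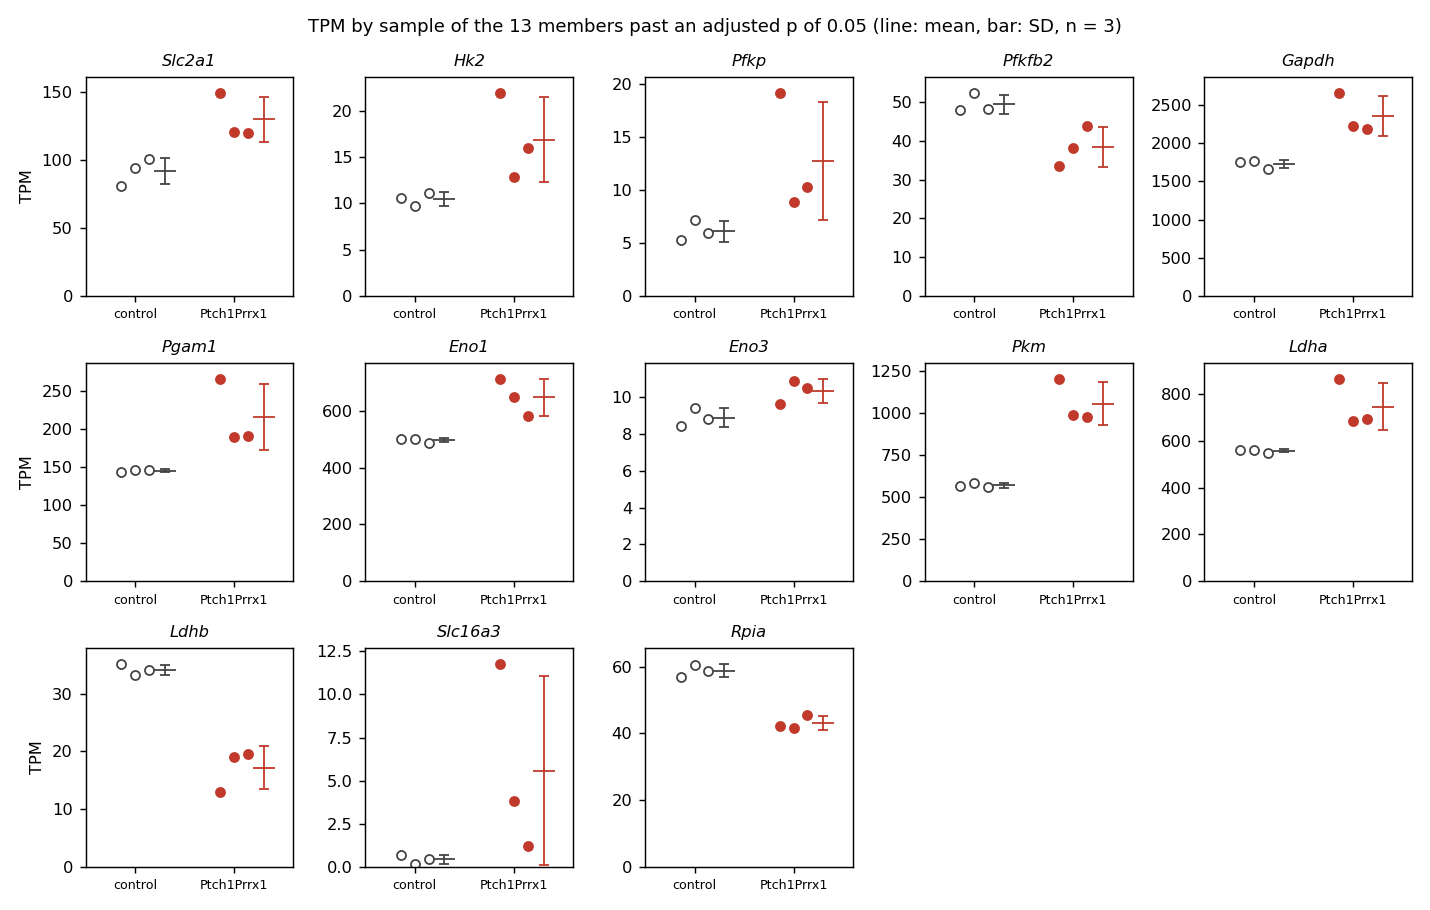
TPM (y axes, from 0) in each of the 3 control samples (open circles) and 3 Ptch1Prrx1 samples (red circles) for the 13 members past an adjusted p of 0.05, with the mean and SD beside the points; replicates 1 to 3 run from left to right. The groups are separate in all 13 panels, and Ptch1Prrx1 replicate 1 lies farthest from the controls in most of them.

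Lactate dehydrogenase interconverts pyruvate and lactate, with an A subunit known from glycolytic tissues and a B subunit known from oxidative ones. The A and B genes moved in opposite directions. Ldha (gene 16828) had 561, 559.6 and 549 TPM in controls and 865, 683 and 692 in Ptch1Prrx1 samples. Every Ptch1Prrx1 sample was above the controls, with a log2 fold change of 0.47 (SE 0.12, adjusted p = 0.0469), or 0.31 without Ptch1Prrx1 replicate 1 (adjusted p = 0.0336). Ldhb (gene 16832) had 35.1, 33.3 and 34.1 TPM in controls and 12.9, 19.0 and 19.6 in Ptch1Prrx1 samples. All 3 were far below the controls, at a log2 fold change of -0.96 (SE 0.14, 95% interval -1.28 to -0.63, adjusted p = 0.0110, edgeR's quasi-likelihood test), and the level decreased by 48.4%. Ldhb passed in 15 of 16 alternatives, the exception being the one without control replicate 2 (adjusted p = 0.0616). The TPM of Ldha per TPM of Ldhb was 16.0, 16.8 and 16.1 in controls and 66.8, 36.0 and 35.3 in Ptch1Prrx1 samples, so Ldha was the major form in both groups.

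Monocarboxylate carriers move lactate across the membrane. Slc16a3 (gene 80879), which encodes MCT4, the export carrier of glycolytic cells, was nearly silent in controls, with 16.6, 3.20 and 10.0 expected counts, and had 268, 84.0 and 26.2 in Ptch1Prrx1 samples. In TPM these were 0.70, 0.14 and 0.45 against 11.7, 3.81 and 1.18. The groups did not overlap but the Ptch1Prrx1 samples spread widely among themselves, and the log2 fold change of 3.70 had an SE of 0.93 (95% interval 1.53 to 5.88, adjusted p = 0.0410). It was 2.50 without Ptch1Prrx1 replicate 1 (adjusted p = 0.0637). Slc16a1, which encodes MCT1, had 2.05, 1.70 and 1.51 TPM in controls and 6.31, 3.12 and 2.63 in Ptch1Prrx1 samples. Those groups did not overlap either, and the log2 fold change of 1.25 missed the threshold (SE 0.37, adjusted p = 0.0609).

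The start regions of the lactate dehydrogenase pair, which moved in opposite directions, and of Hk2, the hexokinase that was higher, are shown for the motif ACGTG, the core of the element bound by hypoxia-inducible factors. They are the 150 bases before 1 RefSeq start of each gene (GRCm38.p6), 5′ to 3′ along the gene, with capitals marking ACGTG on either strand. The palindrome CACGTG holds the motif on both strands, counts as 2 matches, and is also an E-box read by other factors. No GENCODE exon overlapped these stretches. The Ldha stretch lies in an intron of a longer annotated Ldha transcript.
Ldha, chr7:46845654-46845803, plus strand: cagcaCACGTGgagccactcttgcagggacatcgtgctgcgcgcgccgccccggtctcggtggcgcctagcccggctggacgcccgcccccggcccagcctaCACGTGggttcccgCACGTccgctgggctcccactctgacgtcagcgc
Ldhb, chr6:142507958-142508107, minus strand: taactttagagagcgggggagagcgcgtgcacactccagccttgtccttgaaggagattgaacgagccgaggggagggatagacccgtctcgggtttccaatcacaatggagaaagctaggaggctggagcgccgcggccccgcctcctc
Hk2, chr6:82774455-82774604, minus strand: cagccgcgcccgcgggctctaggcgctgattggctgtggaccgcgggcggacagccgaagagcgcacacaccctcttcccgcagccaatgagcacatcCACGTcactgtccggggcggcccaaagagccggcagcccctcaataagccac
The Ldha stretch held 5 matches, the Hk2 stretch 1 and the Ldhb stretch 0. Ldha had 2 RefSeq windows of 250 bases, and the one not shown held 0 matches, so its contrast with Ldhb depends on the start chosen. Over the 250 bases before each start, 14 of 33 members had a match in at least 1 of their RefSeq windows (42.4%), among them 6 of the 10 that were higher and 1 of the 3 that were lower, and 24.7% of the 10414 tested genes with a window had one. Of all 32851 windows of that length in the table, 16.6% held the motif. These are counts of letters, and genes with several start sites had more windows to match in.

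Isozyme composition was computed in each sample as the percentage of a family's summed TPM held by each member. The share of Ldha in lactate dehydrogenase was 94.1, 94.4 and 94.2% in controls and 98.5, 97.3 and 97.2% in Ptch1Prrx1 samples. The share of Hk2 in Hk1 plus Hk2 was 23.9% ± 2.94 in controls and 33.8% ± 5.14 in Ptch1Prrx1 samples (SD, n = 3). Both shares were higher in every Ptch1Prrx1 sample than in any control. Within phosphofructokinase, Pfkp held 7.53% ± 1.29 and 14.3% ± 4.47, and Pfkm held 50.1% ± 1.98 and 38.5% ± 9.77, with Pfkm lowest in Ptch1Prrx1 replicate 1 (27.4%). Slc16a3 held 18.7% ± 9.66 of the pair of monocarboxylate carriers in controls and 50.3% ± 17.5 in Ptch1Prrx1 samples. That share rests on few reads in the controls. Pdk2 held 71.0% ± 0.41 of the summed TPM of Pdk1, Pdk2 and Pdk4 in controls and 64.5% ± 6.80 in Ptch1Prrx1 samples, and Pdk1 29.0% ± 0.46 and 35.5% ± 6.76. Without Ptch1Prrx1 replicate 1 the differences between groups shrank from -11.6 to -6.05 percentage points for Pfkm, from 6.81 to 4.25 for Pfkp, from -6.45 to -2.70 for Pdk2 and from 6.51 to 2.78 for Pdk1. Aldoa held 91.1% ± 0.57 and 92.7% ± 0.94 of aldolase. An exact two-sided permutation test over the 20 arrangements of 6 samples gave p = 0.10, the smallest it allows, for each of these 8 shares, so the design could not reach 0.05. With adjustment over the 12 shares computed, p was 0.15. The shares of Pfkl, Pfkfb3, Eno1 and Pdk4 overlapped between groups (exact permutation p = 0.30, 0.50, 0.30 and 0.50).

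**Figure D3:**
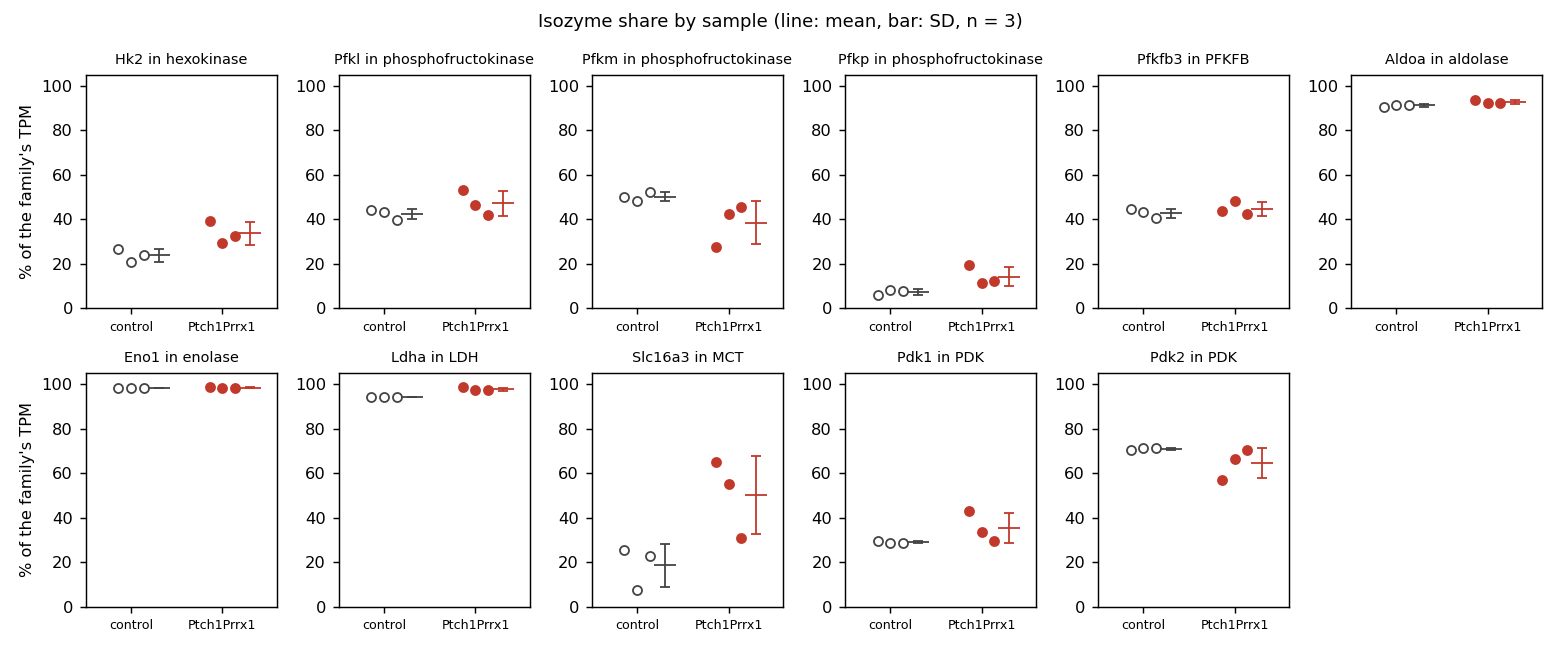
Share of each isozyme in its family's summed TPM (percent, y axes) in each control (open circles) and Ptch1Prrx1 sample (red circles), with the mean and SD beside the points; Pdk4, under 1% in all samples, is left out. The shares of Hk2, Pfkp, Ldha and Slc16a3 are higher in all Ptch1Prrx1 samples than in any control and that of Pfkm is lower.

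Pyruvate dehydrogenase feeds pyruvate carbon into the tricarboxylic acid cycle and is switched off by its kinases. With edgeR, 0 of the 4 tested members passed, beside 7.61% of all tested genes as higher and 6.41% as lower. With edgeR 1 had an unadjusted p of at most 0.05 (Pdk2). With DESeq2 1 passed as lower, beside 8.49% of all tested genes. All 4 had log2 fold changes under 0. The catalytic subunit genes Pdha1 and Pdhb had 115 ± 0.92 and 76.6 ± 0.79 TPM in controls and 103 ± 1.16 and 68.0 ± 3.50 in Ptch1Prrx1 samples (log2 fold changes -0.11 and -0.13, adjusted p = 0.239 and 0.285). The kinase gene Pdk2 had 101, 103 and 97.7 TPM in controls and 54.6, 76.8 and 89.1 in Ptch1Prrx1 samples. It lay below the controls in all 3, with a log2 fold change of -0.42 (SE 0.14, adjusted p = 0.0760). Pdk1, a kinase gene known to respond to hypoxia, had 41.0 ± 1.46 and 39.3 ± 1.72 TPM (log2 fold change -0.06, 95% interval -0.25 to 0.13). Pdk4 had at most 0.28 TPM in any sample.

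Of the 3 genes of the oxidative pentose phosphate steps, 0 passed with edgeR or DESeq2. Of all tested genes, 7.61% passed as higher and 6.41% as lower with edgeR, and 10.9% and 8.49% with DESeq2. Of the 3 genes, 1, Pgd, had an unadjusted p of at most 0.05 with edgeR. G6pdx, the rate-limiting glucose 6-phosphate dehydrogenase, had 368, 385 and 390.3 TPM in controls and 302, 339 and 365 in Ptch1Prrx1 samples. The groups did not overlap, and the log2 fold change of -0.15 did not pass (SE 0.06, 95% interval -0.29 to 0.003, adjusted p = 0.156). Pgls, which opens the lactone ring, had a log2 fold change of -0.18 (adjusted p = 0.173) and Pgd, the dehydrogenase of the next step, one of 0.22 (adjusted p = 0.130). Together the 3 genes summed to 764 ± 17.2 TPM in controls and 717 ± 34.5 in Ptch1Prrx1 samples.

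In the non-oxidative steps all 3 members had groups that did not overlap, all lower, beside 20.3% of all tested genes. Of the 3, 1 passed as lower, beside 6.41% of all tested genes. Rpia (gene 19895), which makes ribose 5-phosphate, had 56.8, 60.7 and 58.8 TPM in controls and 42.3, 41.6 and 45.5 in Ptch1Prrx1 samples. The Ptch1Prrx1 samples lay close together below the controls, at a log2 fold change of -0.41 (SE 0.07, 95% interval -0.56 to -0.25, adjusted p = 0.0141, edgeR's quasi-likelihood test), and the level decreased by 24.5%. Rpia passed in 15 of 16 alternatives, missing only without control replicate 2 (adjusted p = 0.0725). Taldo1, transaldolase, had 490.1 ± 22.7 and 404 ± 28.2 TPM (log2 fold change -0.24, adjusted p = 0.102), and Rpe, the epimerase, 26.4 ± 1.00 and 23.1 ± 1.78 TPM (log2 fold change -0.14, adjusted p = 0.239). Without Ptch1Prrx1 replicate 1 Taldo1 had a log2 fold change of -0.33 and passed (adjusted p = 0.0213).

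**Figure D4:**
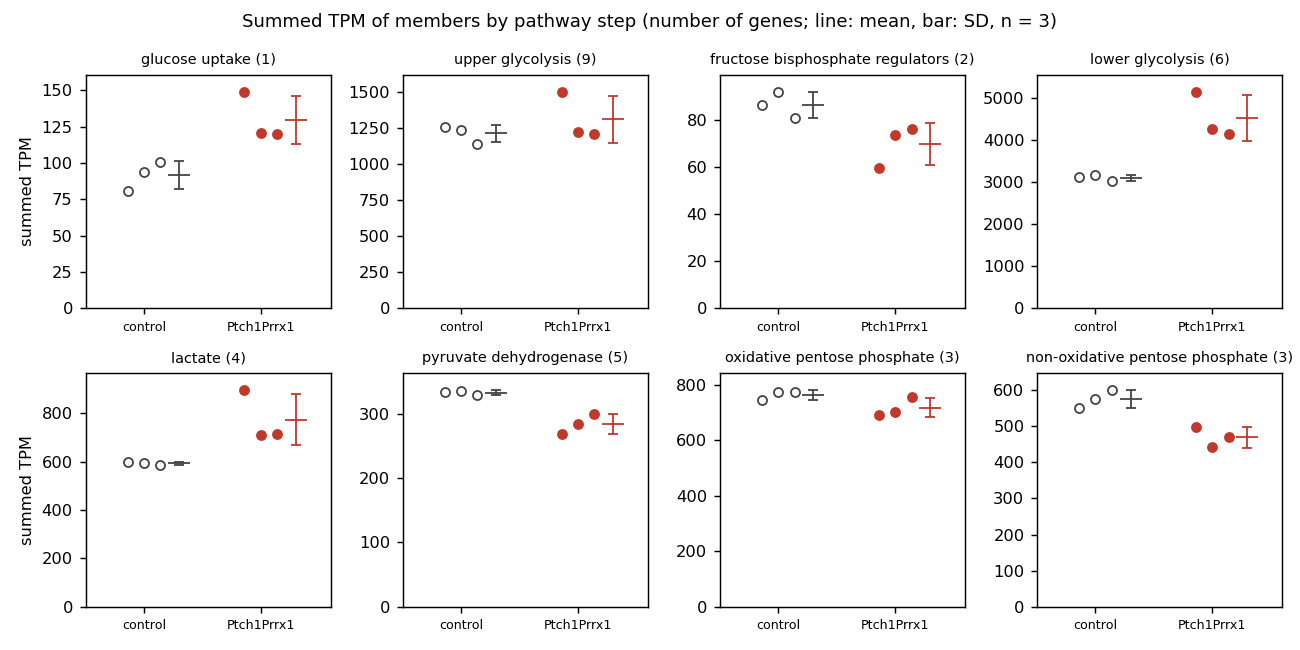
Summed TPM (y axes, from 0) of the members of each pathway step in each control (open circles) and Ptch1Prrx1 sample (red circles), with the number of genes in parentheses and the mean and SD beside the points. Lower glycolysis, the lactate step and glucose uptake are higher in every Ptch1Prrx1 sample, and the sums of the fructose bisphosphate regulators, pyruvate dehydrogenase and non-oxidative pentose phosphate are lower in every one.

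Summed over all 33 members, TPM was 6784, 6866 and 6641 in controls and 9214, 7823 and 7787 in Ptch1Prrx1 samples, a ratio of means of 1.22 and 1.15 without Ptch1Prrx1 replicate 1. TPM is a share of the transcripts in a sample, so fewer cells of a type and less RNA per cell cannot be told apart in these bulk samples.

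The other genes of these pathways gave a different count. Of 54 such genes listed, 51 were in the table and 39 were tested, with 1 higher (2.56%) and 6 lower (15.4%), beside 7.61% and 6.41% of all tested genes. The higher gene was Pgm2, a phosphoglucomutase (log2 fold change 0.52, SE 0.14, adjusted p = 0.0463). The mitochondrial pyruvate carrier needs both Mpc1 and Mpc2, and both were lower. Mpc1 had 183.5, 160.4 and 154 TPM in controls and 120.5, 120.2 and 122 in Ptch1Prrx1 samples (log2 fold change -0.45, SE 0.09, adjusted p = 0.0234). Mpc2 had 167, 141 and 136 TPM in controls and 107, 110.2 and 111.5 in Ptch1Prrx1 samples (log2 fold change -0.40, SE 0.11, adjusted p = 0.0476). Neither gene overlapped between groups. The remaining 4 lower genes were Pdhx, a structural part of the pyruvate dehydrogenase complex (-0.39), the gluconeogenic phosphatase gene Fbp2 (-1.08), the pyruvate carrier gene Slc16a7 (-1.37), and Shpk, a kinase that makes sedoheptulose 7-phosphate (-0.67), with adjusted p between 0.0250 and 0.0481. None of these 7 genes is a member, and with any 1 sample left out at most 2 of the list were lower and 0 higher. The shares of all tested genes fell as well, to between 0.189% and 4.34% as lower and between 0.514% and 5.71% as higher.

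Tkt, transketolase, links the pentose phosphate pathway back to glycolysis and is known for its abundance in the cornea. It had 6536, 6704 and 6194 TPM in controls, several times the level of Gapdh, and 3864, 5819 and 5699 in Ptch1Prrx1 samples. All 3 Ptch1Prrx1 values were below the controls, yet the log2 fold change of -0.31 did not pass (SE 0.14, adjusted p = 0.180), with replicate 1 far below the other two. The TPM of Tkt per TPM of Gapdh was 3.73, 3.80 and 3.72 in controls and 1.45, 2.60 and 2.61 in Ptch1Prrx1 samples.

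Several glycolytic genes are known targets of hypoxia-inducible factors, so the factors and their non-glycolytic targets were read beside the members. Of 22 genes listed, 21 were tested, with 2 higher and 2 lower (9.52% each, beside 7.61% and 6.41% of all tested genes). Hif1a, the oxygen-sensitive subunit that drives glycolytic genes, had 60.3, 61.8 and 57.9 TPM in controls and 80.8, 70.4 and 83.6 in Ptch1Prrx1 samples (log2 fold change 0.42, SE 0.08, adjusted p = 0.0213). Epas1, which encodes HIF-2α, had 321, 391 and 331 TPM in controls and 156, 180.2 and 221 in Ptch1Prrx1 samples (log2 fold change -0.87, SE 0.12, adjusted p = 0.00926). The 2 subunit genes thus moved in opposite directions. Vhl, whose product marks the subunits for degradation, was lower (log2 fold change -0.55, adjusted p = 0.0182). The target Adm, adrenomedullin, rose from 4.32, 1.15 and 0.55 TPM in controls to 98.9, 22.0 and 25.4 (log2 fold change 4.65, SE 0.87, adjusted p = 0.0195). The other 17 tested genes did not pass. The list's median log2 fold change was -0.04, taken over subunits, hydroxylases and targets together, so it does not describe the targets alone. At an unadjusted p of at most 0.05 with edgeR, 6 of the list were higher and 4 lower. With DESeq2, 5 passed as higher and 2 as lower, beside 10.9% and 8.49% of all tested genes. With limma-voom these counts were 1 and 2, beside 7.11% and 6.39%. Txnip, a glucose-responsive inhibitor of glucose uptake, had a log2 fold change of -0.11 (adjusted p = 0.363). Of the 4 glucose-sensing genes, 0 passed with edgeR, DESeq2 or limma-voom, beside 7.61% and 6.41% of all tested genes with edgeR. At an unadjusted p of at most 0.05 with edgeR, 0 of the 4 passed.

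Marker lists of other cell types and of tissue handling were read beside the members. Of 14 immediate early genes, induced rapidly by stimulation or by handling of tissue, 13 were higher (92.9%, beside 7.61% of all tested genes). Their summed TPM was 1341 to 1699 in controls and 3318 to 4107 in Ptch1Prrx1 samples. The conjunctival list summed to 2379 to 3394 TPM in controls and 3643 to 6198 in Ptch1Prrx1 samples, highest in replicate 1. Of its 4 tested genes 1, Muc4, was higher (25%, beside 7.61%), and a single call among 4 genes says little. The list's keratin gene Krt4 had 104.8, 152 and 223 TPM in controls and 898, 169.7 and 528 in Ptch1Prrx1 samples (log2 fold change 1.80, adjusted p = 0.0685). Krt13 had 1193 to 1877 TPM in controls and 1843 to 3182 in Ptch1Prrx1 samples (0.68, adjusted p = 0.107), and Krt19 85.6 to 209 and 162 to 587 TPM (1.46, adjusted p = 0.0793), and all 3 keratin genes were highest in Ptch1Prrx1 replicate 1. Among 7 corneal epithelial markers, Krt14, a keratin of basal cells, rose from between 534 and 644 TPM to between 2420 and 5798 (log2 fold change 2.81, adjusted p = 0.00769). Clu was also higher and the other 5 did not pass, so 28.6% were higher, beside 7.61%. The immune list summed to 115 to 153 TPM in controls and 149 to 195 in Ptch1Prrx1 samples, with the pan-leukocyte gene Ptprc at no more than 0.20 TPM. Of its 3 tested genes 0 passed, beside 7.61% and 6.41% of all tested genes. The part of these differences in the changes of the glycolytic genes was not tested.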

How the data were processed

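RNA-seq of corneal epithelial cells from 3 control and 3 Ptch1Prrx1 samples was used. The authors mapped reads with Bowtie2, and the deposited expected counts (unscaled estimates per gene) and TPM are RSEM output. The submitters' processing notes name Bowtie2 2.2.5, RSEM 1.2.12 and build mm9. Groups and replicate numbers come from the labels, which do not tie samples to animals, so p-values measure the spread between these samples. Expected counts were rounded, since 39.4% of values above 0 were not whole (tolerance 0.001). The fit covered the 12999 genes passing filterByExpr, with edgeR 4.0.16 (TMM factors 0.960 to 1.03, trended dispersion, quasi-likelihood test) in R 4.3.3 and Benjamini-Hochberg adjustment. The thresholds were an adjusted p of 0.05, alone or with a fold change of 2. SEs were derived as |log2 fold change| over the root of the F statistic. A count of 3, at these totals 0.145 to 0.148 CPM, was the floor, for counting error only. Samples of a group differed by more than sampling noise (chi-square per degree of freedom 10.1 to 37.8).

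The members and lists were chosen with earlier results of these data known. Values in every sample are given for members past an adjusted p of 0.05 and for fixed isozymes, some others being named after their values were seen. Of the other pathway and HIF lists, those past 0.05 and Tkt and Txnip are named, and Pfkfb1 and Pfkfb4 beside the member isozymes. Alternatives were DESeq2 1.42.0, limma-voom (limma 3.58.1), RLE and upper-quartile factors, other filters and thresholds, each sample left out, a replicate block, and limma on log2 TPM with pseudocounts of 1 and 0.1. The procedure was tested on simulated data. Promoter sequences came from RefSeq on GRCm38.p6, where all 33 members matched by symbol. Protein sequences were not analysed here.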

Additional observations from a re-analysis of the deposited data

How the results depend on the processing

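Without a fold threshold, 10 members were higher and 3 lower, beside 7.61% and 6.41% of all tested genes. The counts were 12 and 4 with DESeq2, 7 and 3 with limma-voom, 8 and 3 without the filter on counts, and 9 and 2 with a replicate block. The shares of all tested genes were 10.9% and 8.49% with DESeq2, and 7.11% and 6.39% with limma-voom. They were 4.89% and 4.08% without the filter, and 8.02% and 6.54% with the block. The higher count was 6 with limma on log2(TPM + 1) and on log2(TPM + 0.1), beside 5.82% and 5.71% of all tested genes. It was 1 on log2(TPM + 1) without a filter, where 2 were lower, beside 2.58% and 1.86%. With 1 sample left out the higher count ranged from 0 to 9, and the lower count from 0 to 4. The shares of all tested genes then ranged from 0.514% to 5.71% as higher and from 0.189% to 4.34% as lower. At a fold change of at least 2, 2 members were higher, beside 2.34% of all tested genes. This count was 0 with limma-voom and all 3 TPM settings, 1 with at least 10 counts in every sample and 5 at a fold change of 1.5. It ranged from 0 to 3 with 1 sample left out. The lower count of 0 became 1 on log2(TPM + 0.1) and at a fold change of 1.5, and ranged from 0 to 1 with 1 sample left out. Of the 13 members past the threshold, 13 passed with DESeq2, 10 with limma-voom and 10 with the replicate block. With that block, Slc2a1, Pfkp and Pfkfb2 had adjusted p of 0.0542, 0.0658 and 0.0507. Pkm, Ldhb and Rpia each passed in 15 of 16 alternatives. Gapdh, Pgam1 and Ldha passed in 11 of 16, and Slc2a1 and Eno1 in 10. Hk2, Pfkp and Pfkfb2 passed in 7 of 16, Eno3 in 6 of 16 and Slc16a3 in 6 of 15. No shared deviation was seen between samples with the same number (r = 0.11, -0.01 and 0.02 for replicates 1, 2 and 3). Samples with different numbers had r from -0.18 to 0.18. With 3 samples per group this cannot show whether the numbers pair the samples.

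The counts of the next 2 lists stand beside the shares of all tested genes given above for each setting. In the other pathway list, 1 gene was higher and 6 lower. The higher count was 3 with DESeq2, 0 with limma-voom, 2 on log2(TPM + 0.1), 0 on log2(TPM + 1) without a filter and 0 with any sample left out. The lower count was 2 in that unfiltered setting and ranged from 0 to 2 with 1 sample left out. In the HIF list counted together with the 4 glucose-sensing genes, 2 were higher and 2 lower. The higher count was 5 with DESeq2, 1 with limma-voom and 4 with the replicate block, and ranged from 0 to 4 with 1 sample left out. The lower count was 1 on unfiltered log2(TPM + 1) and ranged from 0 to 2.

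The log2 fold change of Hk1 changed sign in 4 of 6 fits with 1 sample left out, which ranged from -0.101 to 0.0423. That of Aldoa changed sign without Ptch1Prrx1 replicate 1, with a range from -0.0446 to 0.187. The difference in the share of Pfkfb3, 2.04 percentage points, became -2.20 when all isozymes of the enzyme were counted. That of Pdk4, -0.06 points, became 0.0035 without control replicate 3, in a range from -0.0881 to 0.0035. The cause was not tested, except that leaving out a sample removes degrees of freedom. Groups of 3 limit what can be seen, and Slc16a3 and Pdk4 rest on few reads in the controls.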
